A study of Homo sapiens with 2 samples.

Results

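In HCCLM3, an established human liver cancer cell line, RNA bound to the protein CRTC2 was sequenced beside the input RNA, and 3412 of the 175546 deposited peaks carried the symbol of a microRNA gene. CRTC2 is a coactivator of the transcription factor CREB. The series held 1 CRTC2 immunoprecipitation (RIP-seq) library from wild-type cells and 1 input library, with no replicate and no library made with a control antibody. A single peak list compares them, so no value below has a replicate check. The cells of both libraries carry no labelled genetic change or treatment, and the study's stated interest is the fate of mRNAs that carry N6-methyladenosine.

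The members are rows of the list whose deposited symbol was that of a microRNA gene, host genes with symbols ending in HG left out. Peaks wider than 10000 bp (318 rows) and peaks on alternative or unplaced sequences (18 rows) were left out as well, from 3748 matching rows. The 3412 peaks carried 309 microRNA symbols. Under the same limits the list held 155197 peaks assigned to other genes. A symbol says which annotated gene start was nearest to a peak, not that the peak lies on that gene. Of the 3412 peaks, 58 overlapped the interval of the assigned gene by at least 1 bp (1.70%), and 3354 did not.

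A microRNA is made from a longer transcript that folds into a hairpin. Drosha with DGCR8 cuts the hairpin out of the primary transcript, and Dicer cuts it to a short duplex, from which 1 strand is loaded into an Argonaute protein. Many hairpins lie in introns or exons of longer genes and are transcribed with them, and a mirtron is a short intron that is itself the hairpin. A sequenced fragment at a hairpin can therefore come from the primary transcript or from the mRNA of the gene around it. Base 2 to base 8 of the mature strand, the seed, pairs with target mRNAs.

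The precursors under narrow peaks are shown first, because they show how little of a hairpin a peak can cover. Capitals mark the bases inside the peak, and all are written 5′ to 3′ as RNA, from RefSeq (GRCh38.p14).
MIR1281: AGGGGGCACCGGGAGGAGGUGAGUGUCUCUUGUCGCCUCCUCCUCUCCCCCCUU
MIR671: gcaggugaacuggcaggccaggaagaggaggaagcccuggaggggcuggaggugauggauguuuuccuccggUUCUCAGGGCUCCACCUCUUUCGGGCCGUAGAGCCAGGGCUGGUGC
MIR555: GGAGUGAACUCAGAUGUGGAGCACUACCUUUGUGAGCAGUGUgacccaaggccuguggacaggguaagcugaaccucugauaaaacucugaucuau
MIR1909: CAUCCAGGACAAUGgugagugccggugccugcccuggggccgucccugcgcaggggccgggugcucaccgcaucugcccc
MIR2110: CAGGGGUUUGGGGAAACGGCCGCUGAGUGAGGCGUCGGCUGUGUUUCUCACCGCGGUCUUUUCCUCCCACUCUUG
MIR23B: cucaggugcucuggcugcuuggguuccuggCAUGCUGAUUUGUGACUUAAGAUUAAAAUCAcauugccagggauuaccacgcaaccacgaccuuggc
MIR1181: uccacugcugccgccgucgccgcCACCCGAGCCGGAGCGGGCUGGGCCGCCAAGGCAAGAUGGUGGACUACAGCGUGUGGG
The peak covered all 54 bases of the MIR1281 precursor and all 75 of MIR2110. It took in 46 of the 118 bases of MIR671, 42 of the 96 of MIR555, 14 of the 80 of MIR1909, 31 of the 97 of MIR23B and 58 of the 81 of MIR1181. In MIR23B the 31 covered bases held neither whole mature strand.

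The next 3 precursors are mirtrons, shown because each starts with gu and ends with ag, the ends of an intron. MIR1225 lies in PKD1, MIR1227 in PLEKHJ1 and MIR1228 in LRP1.
MIR1225: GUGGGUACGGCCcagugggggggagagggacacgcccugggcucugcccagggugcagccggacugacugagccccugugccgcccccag
MIR1227: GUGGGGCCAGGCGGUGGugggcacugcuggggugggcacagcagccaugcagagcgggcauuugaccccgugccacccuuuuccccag
MIR1228: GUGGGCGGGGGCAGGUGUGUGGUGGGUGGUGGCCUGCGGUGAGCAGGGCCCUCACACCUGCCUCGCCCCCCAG
The peaks at MIR1225 and MIR1227 covered the first 12 and the first 17 bases and lay otherwise 5′ of the hairpin, while MIR1228 was covered whole with its neighbourhood, its summit 30 bp away.

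MIR23B lay under a narrow peak, and other well known microRNAs among the overlapped genes lay under wide peaks. Mature strands of the latter are given with the seed (base 2 to base 8) in capitals.
hsa-let-7a-5p: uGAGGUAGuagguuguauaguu
hsa-let-7g-5p: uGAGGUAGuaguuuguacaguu
hsa-miR-26a-5p: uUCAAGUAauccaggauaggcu
hsa-miR-132-3p: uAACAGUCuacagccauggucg
hsa-miR-192-5p: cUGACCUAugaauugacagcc
The let-7a and let-7g strands share the seed GAGGUAG. Of the 50 mature strands of the 32 overlapped precursors with a sequence at hand, 49 different seeds were counted. This was the only seed that more than 1 gene shared.

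The authors deposited for each peak the fold of RIP over input at its summit and a q-value. The number of RIP fragments at the summit, and the input level the peak caller set against it, were worked back from fold and p-value. A single solution was found for 97.5% of peaks in the list, and the closest fit was taken for the rest. Members rested on few fragments. The median was 2, the quartiles 1 and 5, and the highest 29, against 49 in the whole list. A single fragment made 47.8% of member peaks and 43.0% of the others. Peaks of at least 5 fragments made 25.3% and 25.7%. The median fold was 1.87 for members (quartiles 1.76 and 2.28) and 1.86 for the other peaks (1.74 and 2.39). In level and depth the peaks with microRNA symbols were close to the rest of the list.

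At q of at most 0.05, 57 of the 3412 members were called, or 1.67% (exact Clopper-Pearson 95% interval 1.27% to 2.16%, counting error only). Over the whole list 1.63% of peaks were called, and 1.49% under the same limits of width and chromosome, which lies inside the members' interval. All 57 called members lay off their assigned gene. None of the 58 overlapping peaks was called, which with an exact interval allows up to 6.16%. Among the 3354 others 1.70% were called. A difference between these shares was not detectable with 58 peaks.

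Overlapping peaks were wider than not overlapping peaks, in part by construction, since a wider peak touches an interval more often. The 58 overlapping peaks had a median width of 294.5 bp and 41.4% were over 1 kb, against a median of 81 bp for the 3354 that did not overlap. Their median folds were 1.94 and 1.87. Fragments at the summit had medians of 1 and 2. Of members over 1 kb, 24 of 303 overlapped the assigned gene (7.92%, 5.14% to 11.6%), and of those up to 1 kb, 34 of 3109 did (1.09%, 0.759% to 1.52%). Among peaks up to 1 kb the medians turned round, with 1.83 for the overlapping and 1.85 for the others. This did not hold for precursors alone. Of the 34, the 19 over a precursor had a median fold of 2.21. The 15 over an assigned interval longer than 200 bp had 1.76.

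**Figure D1:**
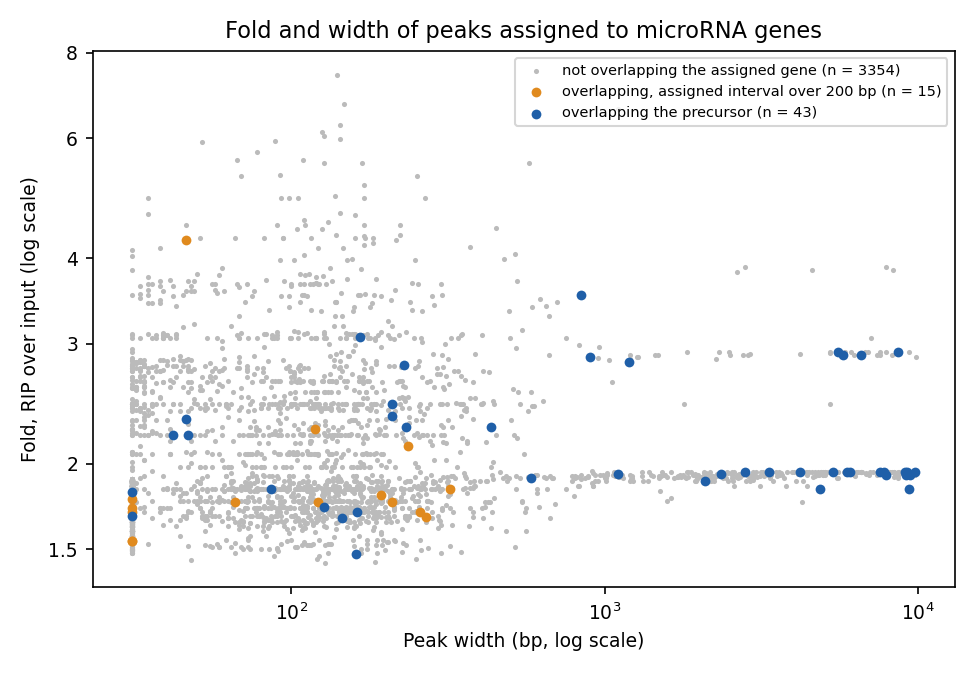
Each point is 1 peak with a microRNA symbol, with its width in bp on the x axis and its fold of RIP over input on the y axis, both log scales. Blue points overlap the precursor (43), orange points overlap an assigned interval longer than 200 bp (15) and grey points overlap neither (3354). The row of wide peaks at 1.94 is peaks of 1 fragment, and the highest folds, up to 7.42, are grey.

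Not every overlap was with a precursor. For 15 of the 58 the assigned interval was longer than 200 bp. These were 11 peaks of MIR548N, whose model in the file spans 195970 bp of chromosome 1, 3 of MIR1268A with 310090 bp of chromosome 9, and 1 row named MIRLET7F2 whose transcript is HUWE1. The highest fold of any overlapping peak was among them. It was a 46 bp peak in the MIR548N model at chr1:99710859-99710904, in FRRS1, with 4 fragments and a fold of 4.25 (exact Poisson 95% interval 1.78 to 9.55, input level held fixed). Its −log10 q was 1.29, just short of the limit.

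The other 43 peaks overlapped a precursor of usual size, of 43 microRNA genes or 1.26% of members. They fall into 24 wide and 19 narrow peaks. The 24 peaks over 1 kb had a median width of 5989 bp and covered the precursor whole, but no summit lay inside it. The summit was a median of 1147 bp and up to 7694 bp away. All 24 rested on 1 or 2 fragments, 17 of them on 1, and 13 were at the lowest input level in the list, 0.0298 fragments.

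MIRLET7A1 had 2 fragments and a fold of 2.89 (1.20 to 7.91), with the summit 14 bp from the hairpin. MIR3171 and MIR576, an intronic microRNA of SEC24B, had 2.91 and MIR548H1 in SYNE2 had 2.89, each on 2 fragments. MIR554 in TUFT1 had 2.82, also on 2 fragments. MIRLET7G, in WDR82, rested on 1 fragment with a fold of 1.94 (interval up to 6.38). The same value, the fold of 1 fragment at the lowest input level, was that of MIR132, MIR26A1 in CTDSPL, MIR197 in the span of GNAI3, MIR556 in NOS1AP and MIR938 in SVIL. MIR192, a microRNA abundant in liver and gut, had 1.92 on 1 fragment. None of these intervals reaches clear of the others, so their folds give no order.

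The 19 narrow peaks had a median fold of 2.21 and a median of 3 fragments, with 8 on 1 or 2. In 8 the summit lay inside the precursor. The highest was MIR1281, a precursor that ends 26 bp before the RefSeq start of EP300, which encodes the CREB coactivator p300. Its peak at chr22:41092211-41093052 was 842 bp wide, with 7 fragments and a fold of 3.53 (1.68 to 6.80), its summit 171 bp from the hairpin. The peak reached past the annotated EP300 start, so hairpin and gene cannot be told apart there.

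MIR671, in CHPF2, a gene of chondroitin synthesis, had 4 fragments and a fold of 3.07 (1.28 to 6.90) at chr7:151238493-151238658, with the summit inside the hairpin. MIR1207 in the long non-coding RNA PVT1 had 2.86 on 2 fragments. MIR1914 in UCKL1 had 2.33 on 2 fragments, with 2 bases in the peak. The lower ends of the intervals of MIR671 and MIR1207 were 1.28 and 1.19, and that of MIR1914 was 0.964.

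The mirtrons gave 2.45 for MIR1225 (0.991 to 5.98, 3 fragments), 2.35 for MIR1228 (0.974 to 6.45, 2 fragments) and 2.21 for MIR1227 (0.922 to 4.96, 4 fragments). All 3 intervals include a fold of 1. MIR1306, which lies in DGCR8, the gene of the partner of Drosha, was covered whole by a 435 bp peak of 7 fragments with a fold of 2.26 (1.08 to 4.36), but the summit was 319 bp away. MIR1909 in REXO1 had the same 7 fragments and 2.26, and MIR555 in the histone methyltransferase gene ASH1L had 2.21 on 4 fragments with its summit inside.

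The deepest of the narrow peaks had the lowest fold. MIR1181, in the gene of the HSP90 cochaperone CDC37, had 22 fragments at the summit, inside the precursor, and a fold of 1.48 (0.9495 to 2.20). MIR2110 in CCDC186 had 5 fragments and 1.70, and MIR23B in AOPEP had 1 fragment and 1.68. The narrow peaks of MIR601, MIR612, MIR644A, MIR1182 and MIR1204 ranged from 1.66 to 1.90 and are named here after their values were seen. MIR612 lies in the paraspeckle RNA NEAT1. None of the 19 narrow member peaks over a precursor had an interval wholly above 2.

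**Figure D2:**
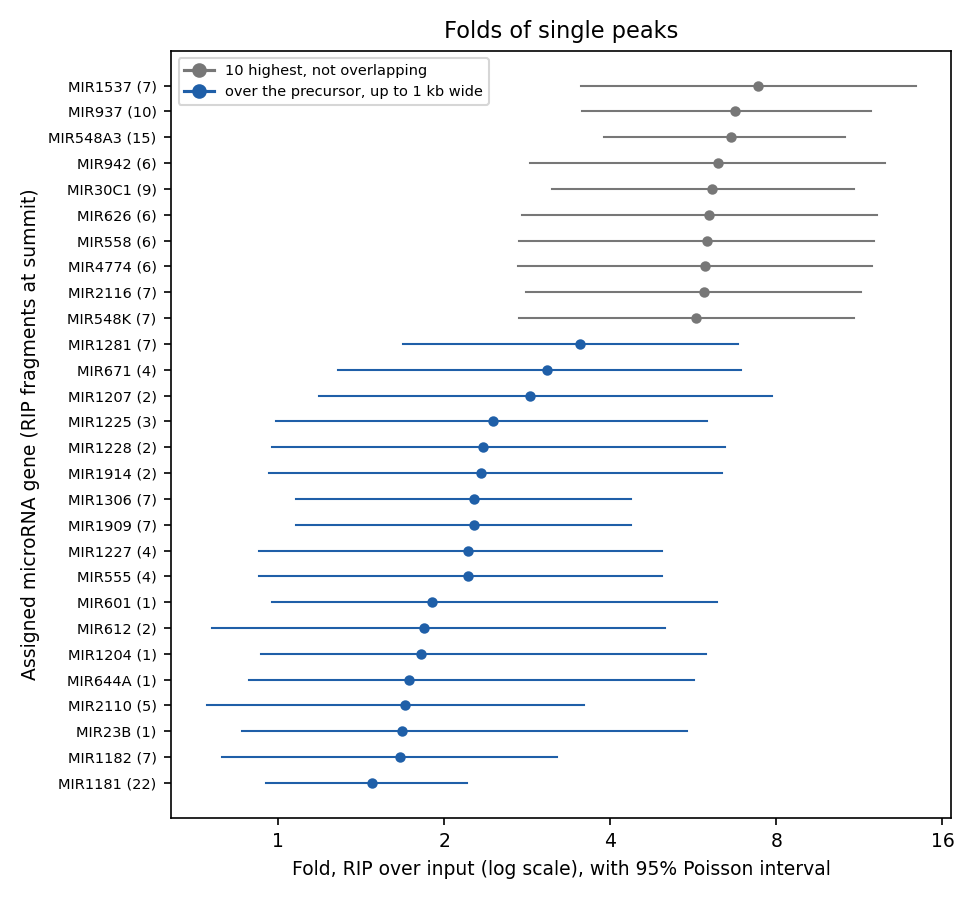
Points are the folds of RIP over input (x axis, log scale) of single peaks named on the y axis with their RIP fragments, and lines are exact Poisson 95% intervals that hold the input level fixed. The 10 highest peaks off their assigned gene (grey) range from 5.73 to 7.42 and the 18 narrow peaks with at least 2 bases of a precursor (blue) from 1.48 to 3.53.

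The peaks that did not overlap lay far from the microRNA whose name they carried. The gap had a median of 16538 bp (quartiles 5573 and 37115, range 7 to 278066). Within 1 kb lay 216 peaks (6.44%), 1026 (30.6%) lay 1 to 10 kb away, 1926 (57.4%) 10 to 100 kb away and 186 (5.55%) beyond. Upstream and downstream were near even, at 47.3% and 52.7%. In 92.1% of members the microRNA lay inside the span of another gene, and 80.2% had their summit in that same gene. Of the 1118 exon peaks, 889 (79.5%) were in an exon of the gene that holds the microRNA. Of the 57 called members, 47 had their summit in it.

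By annotation class, introns held 35.1% of members (33.5% to 36.7%) against 26.7% of other peaks, and 3′ UTRs held 9.70% against 15.0%. Exons were near equal at 32.8% and 32.2%, and promoters, within 3000 bp of a start, made 16.5% and 18.1%. All 43 peaks over precursors were in the promoter class, since a hairpin is within that distance of its own start. The differences in share were not tested, because peaks of 1 gene are not independent.

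**Figure D3:**
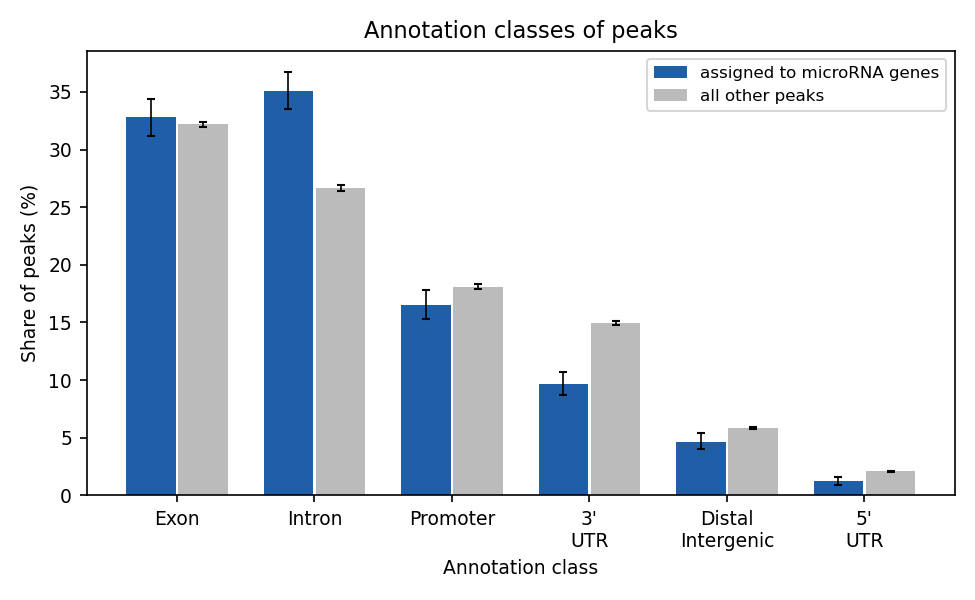
Bars are the share of peaks (y axis, percent) in each annotation class (x axis) for the 3412 peaks with microRNA symbols (blue) and the 155197 others (grey), with exact 95% binomial intervals for counting error. Introns stand at 35.1% against 26.7% and 3′ UTRs at 9.70% against 15.0%.

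Depth and calls differed by class. The 1196 intron peaks off their gene had a median of 1 fragment, 87.0% on 1 fragment, and 6 calls (0.502%, 0.184% to 1.09%). In introns of other genes' peaks 0.304% were called. The 1118 exon peaks had a median of 4 fragments, a median fold of 2.02 and 40 calls (3.58%, 2.57% to 4.84%), against 2.81% of exon peaks elsewhere. The 517 promoter peaks gave 9 calls (1.74%) against 1.36%. None of the 323 peaks in 3′ UTRs was called (up to 1.14%), against 0.916% elsewhere. Each of the other genes' shares lay inside the members' interval.

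The highest folds with a microRNA symbol lay in protein-coding genes, away from the hairpins. The first was a peak named MIR1537 in the 5′ UTR of LYST, the lysosomal trafficking regulator, at chr1:235830286-235830425, 22575 bp from the microRNA. It had 7 fragments, a fold of 7.42 (3.54 to 14.3) and a −log10 q of 7.34. The second, named MIR937, lay 572 bp from its microRNA in SCRIB, a cell polarity gene, with 10 fragments and 6.73 (3.55 to 11.9). Another peak of MIR937, 9 bp from the hairpin, had 4 fragments and 3.99 and was not called. MIR548A3 named an exon peak of LRP12 with 15 fragments and 6.63 (3.89 to 10.7). MIR942 named exon 11 of 23 of TTF2, a transcription termination factor, at 6.26 on 6 fragments.

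MIR30C1 and MIR30E, of the miR-30 family, both named peaks in NFYC, a subunit of the CCAAT-binding factor. Exon 8 of 10 had 9 fragments and 6.12 (3.13 to 11.1), 9237 bp from MIR30C1, and the called MIR30E peak had 4.41. MIR558 had 3 called peaks, all exons of BIRC6, a large inhibitor of apoptosis. Exon 57 of 74 had 5.98, exon 34 had 5.58 and exon 24 had 4.90. MIR620 likewise had 3 called peaks, in MED13L of the Mediator kinase module, with 5.52 on 15 fragments in exon 6 of 31.

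Further named exons were of MGA for MIR626 at 6.05, CERS6, a ceramide synthase, for MIR4774 at 5.95, MYO1E for MIR2116 at 5.91, PPFIA1 for MIR548K at 5.73 and WLS, the Wnt carrier, for MIR1262 at 5.56. Each rested on 5 to 7 fragments. MIR663B in ANKRD30BL had the most fragments among peaks at a −log10 q of at least 3, 24, with a fold of 3.73 at −log10 q 3.28. It is related in sequence to other copies, between which reads could be split, and its count is uncertain. Of the 57 called members 41 lay over 10 kb from the microRNA and 51 over 1 kb.

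Of the 28 peaks that lay within 100 bp of the precursor without overlap, 2 were called (7.14%, 0.877% to 23.5%), and of the 216 within 1 kb 6 were (2.78%, 1.03% to 5.95%). Both intervals include the 1.49% of all peaks under the same limits. MIR106B, in an intron of the replication helicase gene MCM7 with MIR93 and MIR25, had a 132 bp peak 79 bp from the hairpin with 21 fragments, a fold of 2.999 (1.91 to 4.51) and −log10 q 1.38. The other row carries the symbol MIR98, but its transcript is let-7f-2. It lies 84 bp from that hairpin in HUWE1, a ubiquitin ligase gene, with 11 fragments and 4.14 (2.24 to 7.13). Both peaks lie in genes that hold the microRNA, and whether the fragments belong to the mRNA or the primary transcript was not tested.

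The row named MIR98 belongs to a fault of the symbol column. In 7 member rows, all on chromosome X, the symbol was not that of the row's transcript, and in all 7 it was the gene of the row before. On chromosome X symbol and transcript disagreed in 300 of 5783 named rows (5.19%), in 242 of them with the gene of the row before as symbol. In the whole list symbol and transcript disagreed in 1612 of 156963 rows (1.03%).

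Peaks were spread unevenly over the 309 microRNA genes. The median was 6 peaks (quartiles 2 and 15), 45 genes had 1, and the 59 genes with at least 20 held 1926 peaks (56.4%). The gene with the most was MIR634, with 100 peaks that all lie in PRKCA, protein kinase C alpha, 76 of them in introns, and none called. MIR151A in PTK2, focal adhesion kinase, had 77 with none called. MIR558 had 64 in BIRC6, 34 in exons and 3 called. MIR1207 had 61 in PVT1, 56 in introns and 1 called. MIR222 had 59, 23 of them in its host transcript, at most 3 fragments deep and none called. In all, 45 of the 309 genes had a called peak, and the same share over all genes was not counted. By peak, 1.67% of members were called beside 1.49% of all peaks under the same limits. For intron peaks the shares were 0.502% for members off their gene and 0.304% for other genes' peaks. Whether any single gene differed from these shares was not tested.

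**Figure D4:**
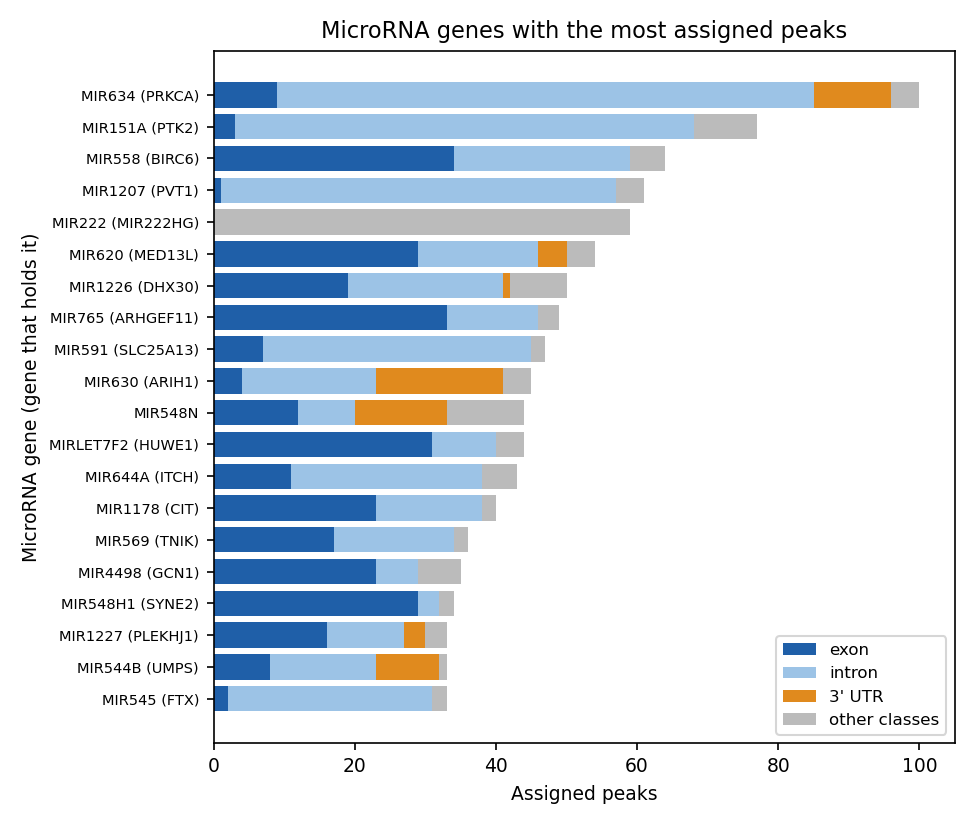
Bars count the peaks (x axis) assigned to each of the 20 microRNA genes with the most, named on the y axis with the gene that holds it, and colours give the annotation class. MIR634 has 100 peaks, 76 of them in introns, and MIR558 has 64, 34 of them in exons.

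The microRNA families are given as counts of genes named, hairpins overlapped and peaks called. Beside them, peaks of any symbol overlapped 122 of 1562 hairpins with a RefSeq sequence (7.81%). Of all peaks under the same limits 1.49% were called. In the lists below, an overlapped hairpin counts only for the gene its peak was assigned to. Differences of the lists from these shares were not tested. Of the 12 let-7 genes, 7 were named by 100 peaks, 2 hairpins were overlapped (MIRLET7A1 and MIRLET7G) and no row whose symbol and transcript agreed was called. MIRLET7I had 20 peaks with a highest fold of 4.28 and the nearest 875 bp away. MIRLET7A3 had 5 and MIRLET7F1 1, the latter 198 bp from its hairpin at 1.89. Of 15 genes of the miR-17-92 cluster and its paralogs only MIR106B, MIR25 and MIR363 were named, by 7 peaks. MIR25 had a highest fold of 2.01 and MIR363 had 2.83 on 2 fragments.

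Among 34 liver microRNAs 19 were named by 229 peaks and 3 hairpins were overlapped, those of MIR26A1, MIR23B and MIR192. By transcript rather than symbol 5 were, with MIR221 at 1.82 and MIR24-1 at 1.70, each on 1 fragment with the summit inside the hairpin. The list's 1 call was a peak of MIR29B1 in LINC-PINT, 5154 bp from its hairpin, with 3 fragments and 3.88. MIR122, the most abundant microRNA of hepatocytes, had 23 peaks, the nearest 50547 bp from its hairpin and none in its host transcript. MIR21, in VMP1, had 19 peaks with a highest fold of 2.72. MIR33A in the cholesterol regulator SREBF2 had 27, the nearest 228 bp from the hairpin, with a highest fold of 3.67. MIR122, MIR21 and MIR33A had no called peak.

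Of the 4 CREB-responsive microRNAs only MIR132 was named, by its wide peak of 1 fragment. The hairpin of MIR212 also lay under a wide member peak assigned to another microRNA gene, with 1 fragment and a fold of 1.94. Of the 5 genes of the miR-200 family only MIR141 was named, with 17 fragments and a fold of 1.82, 1292 bp away. The 46 genes of the chromosome 19 cluster and the 52 of the chromosome 14 cluster had no peak with their symbol. The miR-30 list had 5 peaks for 2 of its 6 genes, both calls in NFYC. The list of MIR103A, MIR107 and MIR15 relatives had 29 peaks for 7 of 11, with 1 call, of MIR107 in the pantothenate kinase gene PANK1 at 3.85 on 3 fragments. In the list of microRNAs in ribosomal DNA or its copies, 2 of 10 were named and MIR663B was the call.

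Several mirtrons had a peak close by. Of 10 mirtrons in the list 8 were named, by 148 peaks, with 3 overlapped and none called. Of all peaks under the same limits 1.49% were called, and a difference from that share was not tested. MIR1226 in DHX30 had its nearest peak 84 bp away, MIR1229 in MGAT4B 54 bp, MIR1237 in RPS6KA4 63 bp and MIR1238 in ATG4D 103 bp. A mirtron has exons on both sides, and whether these fragments are of the exons was not tested. The highest fold in the list, 4.28, was a peak of MIR1227 that was not called.

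The 1562 hairpins with a RefSeq sequence at hand were then set against every peak within the limits, whatever its symbol. They do not cover every microRNA gene. Of the 309 member symbols 242 had a hairpin among them, and overlaps with the rest are not counted here. Peaks overlapped 122 hairpins (7.81%, 6.53% to 9.25%), narrow peaks 71 (4.55%), and 28 held a summit (1.79%, 1.19% to 2.58%). Called peaks overlapped 2 hairpins, and neither row carried a microRNA symbol. MIR5703 lay under a 118 bp peak assigned to AGFG1, with the summit inside the hairpin, 16 fragments, a fold of 4.81 (2.87 to 7.63) and −log10 q 3.33. The other, MIR4785, lay under a peak with no symbol, with 12 fragments and 5.73. Summits inside hairpins came to 22.05 per 100 kb of sequence (14.6 to 31.9). In the 1 kb upstream the density was 21.0 (18.8 to 23.4) and in the 1 kb downstream 26.1 (23.6 to 28.7). The interval inside hairpins overlaps those of both flanks.

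The density was highest just 3′ of the hairpin. In the first 100 bp downstream there were 75 summits, next to 75 different hairpins, or 48.0 per 100 kb (37.8 to 60.2), and in the next 100 bp 54 (34.6, 26.0 to 45.1). The first 100 bp upstream had 26 (16.6, 10.9 to 24.4). Hairpins that begin with gu and end with ag, as the mirtrons above do, numbered 36. A summit lay in the first 100 bp downstream of 6 of them (16.7%, 6.37% to 32.8%) and of 69 of the other 1526 (4.52%, 3.53% to 5.69%). Peaks overlapped 7 of the 36 (19.4%, 8.19% to 36.02%) and 115 of the others (7.54%, 6.26% to 8.98%). Without the 36 the downstream density was 45.2 (35.2 to 57.2) and the upstream 16.4 (10.6 to 24.2). These splits were made after the densities were seen and the differences were not tested.

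**Figure D5:**
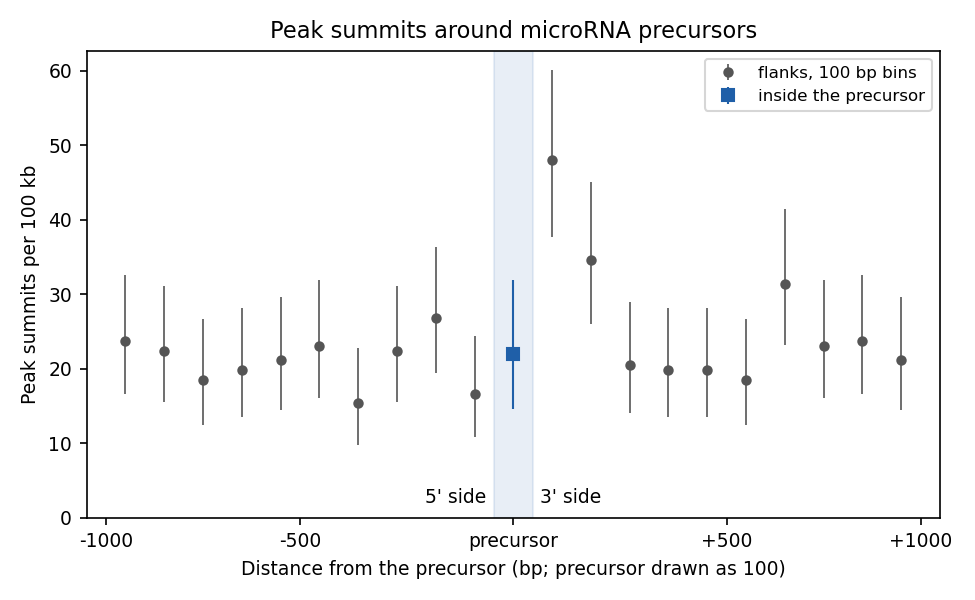
Points are peak summits per 100 kb (y axis) in 100 bp bins of distance from 1562 microRNA precursors (x axis, 5′ side to the left), and the blue square is the precursor itself, drawn at a fixed width. Lines are exact Poisson 95% intervals. The first bin on the 3′ side stands at 48.0, the precursor at 22.05.

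The m6A context was searched only as the letters GGAC, in RNA sense on the hairpin strand. They occurred in 427 of 1562 hairpins (27.3%, 25.1% to 29.6%) and in 8 of the 32 under overlapping members (25%, 11.5% to 43.4%), in 5 of these inside the covered bases. Among the 14 hairpins under narrow peaks 5 held the letters (35.7%, 12.8% to 64.9%). A match shows letters, not a modified base.

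The mRNAs of the microRNA pathway itself were read in the same list, here over peaks of any width. Of 28 processing genes, 23 had a peak in an exon or UTR and 6 of these 23 (26.1%) had a called peak, beside 1347 of 10723 genes (12.6%) with such peaks in all. The median of the highest fold per gene was 3.09 for the list and 2.83 for all these genes. DICER1 had the highest, exon 24 of 25 at chr14:95091027-95091348, with 8 fragments and 6.20 (3.07 to 11.5). The GW182 proteins recruited by Argonaute followed, TNRC6C at 5.49 and TNRC6A at 4.78, each with 3 called peaks. The uridylyltransferase gene TUT4 had 4.40, and AGO3 had 3.88 on 3 fragments with 3 called peaks. That AGO3 peak, at chr1:35943495-35967067, was wider than 10000 bp. The exonuclease gene DIS3L2 had 3.78 on 3 fragments, and this peak is also a called member, named MIR562.

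The remaining processing genes were not called. The highest of them were TNRC6B at 4.11 and AGO1 at 3.97, above the folds of AGO3 and DIS3L2. DROSHA had a highest fold of 3.67 over 17 peaks, DGCR8 3.09 over 11, XPO5, the exporter of precursors, 3.09 over 19, and AGO2 3.40 over 15. TARBP2, NCBP2, DDX5, LIN28A and LIN28B had no peak in an exon or UTR. METTL3, the m6A writer, had 6 peaks, the highest at 3.03. A gene with more exonic peaks has more chances of a call, and this was not corrected for.

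The label of the cells was checked on the same peaks. Of 8 hepatocyte markers 6 had an exonic peak (ALB, APOB, APOH, HNF4A, FOXA1 and AFP), with none for APOA1 and TTR. Of 3 blood, 3 endothelial and 3 fibroblast markers 1 each had a peak, ITGAM, PECAM1 and LUM. The hepatocyte marker APOB and the endothelial marker PECAM1 each had 1 called peak, and both had a highest fold of 3.88 on 3 fragments. The share of all genes with an exonic peak was not counted. Peaks show enrichment over input and not levels, so they describe the cell type only loosely.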

How the data were processed

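RIP-seq of CRTC2 and its input, 1 library each from HCCLM3, were analysed from the peak list the authors deposited. Per the submitters' processing notes, HISAT2, MACS2 and hg38 were used, and no source used here gives their versions or settings. The deposited list gives a fold (ratio of RIP to input at the summit), −log10 p-values and −log10 q-values per peak, 2 of them under spoiled column names that were identified from their values, a score and annotated transcripts. Library totals are not analysed here.

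RIP fragments and input levels were recovered from fold and −log10 p, taking MACS2's pseudocount of 1 and a Poisson tail. They matched within 0.001 for 100% of peaks, with a single solution in 97.5%. The input level is the caller's local estimate. The step was tested on simulated data. Intervals are 95%, Clopper-Pearson for shares and Poisson for folds, and cover counting error only; fragments carry no molecular identifiers. With 1 library per group no test was made. Sequences and gene spans came from RefSeq (GRCh38.p14), with 242 of the 309 symbols matched to a hairpin, and 229 of 235 file intervals equal to it. Host genes were gene spans around the interval, without regard to strand.

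Named peaks were the 20 overlapping peaks of highest fold, the 10 highest others and those at −log10 q of at least 3, the 5 genes with the most peaks, and members of the lists; 1 such peak is not reported here. Members and lists were chosen with earlier results of these data known. Python 3.11.15, pandas 2.3.3, scipy 1.17.1 and matplotlib 3.10.9 were used.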

Additional observations from a re-analysis of the deposited data

Results flagged for a closer look

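Rows without a symbol held further peaks over precursors, outside the comparison of overlapping with not overlapping peaks. The count over 1562 RefSeq hairpins takes in only those whose hairpin is in that set. The list gave no symbol for 18526 rows. In 5383 of them, within the limits of width and chromosome, the annotated transcript was that of a microRNA, of 600 genes. Of these peaks 94 overlapped the assigned gene (1.75%, 1.41% to 2.13%), of 90 genes, 59 of them narrow and over a precursor, and 18 had the summit in the precursor. The overlapping share was close to the 1.70% of members. Of the 5383 peaks 89 were called (1.65%), beside 1.49% of all peaks under the same limits. Of the 94 overlapping peaks 1 was called, that of MIR4785, in RBMS1. MIR4785 had a 383 bp peak at chr2:160407494-160407876 with 12 fragments, a fold of 5.73 (3.18 to 9.69) and −log10 q 3.50. The summit lay outside the hairpin.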

How the results depend on the processing

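The 14 alternatives gave 86 values, of which 48 stayed within 1 interval, or within 1.5 times for counts, and 38 moved. The median fold of overlapping minus not overlapping peaks, 0.0708 (0.0174 to 0.0708), has no settled sign. It was −0.0272 for peaks up to 1000 bp, −0.37 with at least 5 fragments, −0.12 with the summit inside the gene and −0.94 with 1 peak per gene, and 0.0742 with 50% of the gene covered or intervals up to 200 bp, by symbol or by transcript accession; at −log10 q of at least 5 it has no value. The overlapping share of 1.70% was 1.09% up to 1000 bp, 5.22% with no width limit, 0.810% with 5 fragments, 0 at −log10 q of at least 5, 0.938% with 50% covered, 0.674% by summit, 2.52% within 100 bp, 4.85% with 1 peak per gene and 1.27% for intervals up to 200 bp. The 46 overlapped genes were 22, 178, 7, 0, 11, 73 and 15 under the settings of width (both), 5 fragments, stricter q, summit, 100 bp and 1 peak per gene, 24 with 2 fragments, and 136 by transcript accession or 134 of them with intervals up to 200 bp. The called share of 1.67% was 4.17% with 5 fragments, 3.20% with 2, 0.0586% at the stricter q and 13.6% with 1 peak per gene, where each gene's highest peak is taken by construction. For peaks off their gene it was 4.20%, 3.25%, 0.0596% and 14.3%. The 3412 peaks were 864 with 5 fragments, 1781 with 2, 8813 by transcript accession and 8776 with intervals up to 200 bp. The alternatives by transcript and by interval length were chosen after seeing the data. Where the alternative did not fix the change by construction, the cause was not tested. No paired analysis was possible because each group held 1 library. Depth is low: 47.8% of these peaks rest on 1 fragment, and no control antibody library was analysed here.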
